A study of Mus musculus with 24 samples.

Results

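The genes described here are 8 genes of cholesterol synthesis, 7 of which encode enzymes of the pathway and 1 of which, Srebf2, encodes its transcription factor. They were taken by symbol from a table of 55421 genes, and each of the 8 symbols mapped to 1 row and passed the filter on low counts in every comparison. None of the 8 is an uptake gene, so the uptake of cholesterol enters below only through the other genes of the pathway. RNA was measured in crypts of the small intestine of 8 mice. The hom animals (Setd1aFC/FC; Lgr5-eGFP-CreERT2, the knockout) were BN45, BO25, BO57 and BP04, and the het animals (Setd1aFC/+; Lgr5-eGFP-CreERT2, the control) were BN44, BO27, BO58 and BP03. All 8 mice thus carried at least 1 conditional Setd1a allele and a tamoxifen-activated Cre under Lgr5, a gene of crypt base stem cells, so recombination can begin only in cells that express this Cre. All were injected with 1 mg tamoxifen on each of 3 days, and cells were collected 4 days after induction; the labels give no age. Cells sorted with antibodies to EpCAM, CD24 and CD45 gave a Paneth, a stem and a transit-amplifying (TA) fraction of each animal, so each of the 6 groups holds 4 libraries. TA cells are the dividing progeny of the stem cells, and Paneth cells are the secretory cells beside them at the crypt base.

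Cholesterol is made from acetyl-CoA through the mevalonate pathway: isoprenoid units are built and joined to squalene, which is closed into lanosterol and trimmed to cholesterol. SREBP2, the product of Srebf2, is held in the endoplasmic reticulum by INSIG proteins while sterols are plentiful. When sterols are scarce it is cut, enters the nucleus and switches on the enzymes of the pathway, its own gene and the uptake of lipoproteins. The intestinal epithelium both absorbs cholesterol from the diet and makes it.

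Library totals ran from 24.73 to 47.05 M counts, and the 8 genes were counted at between 73 and 7099 fragments in a library. Levels are given as CPM, the count scaled to a common library total, after TMM scaling of all 24 libraries together. The 10 most abundant genes took 18.75% to 57.22% of a Paneth library and 13.05% to 23.74% of a stem or TA library. Stem markers (6 genes, Lgr5 among them) summed to 27260 to 45490 CPM in stem libraries, against 4887 to 10090 CPM in TA libraries. Paneth markers (7 genes) summed to 69430 to 882900 CPM in Paneth libraries, against 471 to 2177 CPM in stem and 687 to 5108 CPM in TA libraries. The Paneth libraries also held goblet markers at 1166 to 17470 CPM, enteroendocrine markers at 3291 to 8008 CPM and tuft markers at 1153 to 2355 CPM. Immune markers (4 genes, Ptprc among them) summed to 25.5 to 43.6 CPM there, against 1.21 to 6.95 CPM in stem and 1.365 to 5.98 CPM in TA libraries. Setd1a, the targeted gene, was at 4.86 to 7.32 CPM in hom and 6.36 to 15.1 CPM in het Paneth libraries, 3.72 to 6.92 in hom and 3.99 to 7.08 CPM in het stem libraries, and 4.51 to 6.62 CPM in hom and 3.43 to 6.74 in het TA libraries. Because a gene's count is taken over its exons together, it does not show whether part of Setd1a was removed, and no file gives the share of recombined cells.

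The members lie on chromosomes 3, 5, 10, 13, 14 and 15 (mm10, Ensembl 98 gene models, counts over all exons). Hmgcs1 (ENSMUSG00000093930, chr13:119690379-119708260, plus strand) encodes the cytosolic HMG-CoA synthase, an early step of the pathway. Idi1 (ENSMUSG00000058258, chr13:8885501-8892451, plus strand) encodes isopentenyl diphosphate isomerase, and Fdps (ENSMUSG00000059743, chr3:89093588-89101959, minus strand) the farnesyl diphosphate synthase that joins the isoprenoid units. Fdft1 (ENSMUSG00000021273, chr14:63145150-63179578, minus strand) encodes squalene synthase, the branch point into sterols. Sqle (ENSMUSG00000022351, chr15:59315077-59331192, plus strand) encodes squalene epoxidase, and Lss (ENSMUSG00000033105, chr10:76531588-76557138, plus strand) the lanosterol synthase that closes the ring. Cyp51 (ENSMUSG00000001467, chr5:4081145-4104746, minus strand) encodes lanosterol 14-alpha demethylase. Srebf2 (ENSMUSG00000022463, chr15:82147181-82205379, plus strand) encodes SREBP2. Per kilobase of exon the median level over the 24 libraries was highest for Hmgcs1 at 29.7 CPM per kb, followed by Fdft1 at 23.97, Cyp51 at 13.7, Sqle at 11.6, Idi1 at 9.25, Srebf2 at 2.90, Fdps at 2.04 and Lss at 1.11. The ranges of neighbours in this order overlapped throughout, with 13.1 to 42.0 CPM per kb for Hmgcs1 and 14.5 to 38.6 for Fdft1 at the top, and 0.308 to 2.66 for Lss at the bottom. The order depends on the length used, that of all annotated exons together, 10787 bases for Lss and 4208 for Fdps. The longest coding transcript of Fdps has 1382 bases.

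The low level of Fdps has to be read with its copies and with a gene that overlaps it. The mouse genome holds processed pseudogenes, intronless copies of a messenger RNA, of 3 members, and fragments of the gene can be counted there. Fdps matched 5 of them at 90% identity or more over at least 200 bases, and the closest, Gm3571, was 98.87% identical over 1062 bases. Gm3571 averaged 57.8 CPM over the 24 libraries, and Fdps itself held 8.41% to 10.9% of the summed counts of Fdps and its copies in the 6 groups. Idi1 was 100% identical to Gm13502 over 684 bases, and it held 49.3% to 53.4% of the sum of Idi1 and its 3 copies. Fdft1 held 81.7% to 83.6% of the sum with its 1 copy, Gm6781. The share of Fdps was highest in Paneth libraries, at 10.02% in hom and 10.9% in het, against 8.49% in hom and 8.41% in het TA libraries. With the copies added, Fdps averaged 88.1 ± 18.8 CPM in hom and 91.8 ± 30.8 CPM in het Paneth libraries, 52.0 ± 6.69 CPM in hom and 60.6 ± 24.4 CPM in het stem libraries, and 105.6 ± 17.5 in hom and 124 ± 12.3 in het TA libraries (SD, n = 4 each). Counting was unstranded, and the exons of Fdft1 share 774 bases with Ctsb on the opposite strand (488 CPM on average), as those of Cyp51 share 166 bases with Akap9 (136 CPM). The exons of Fdps share 1124 of 4208 bases with Gm43738, a protein-coding gene on the same strand (0.0191 CPM on average). Reads in all these stretches cannot be told apart, and the effect of the overlaps on the counts was not tested.

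**Figure D1:**
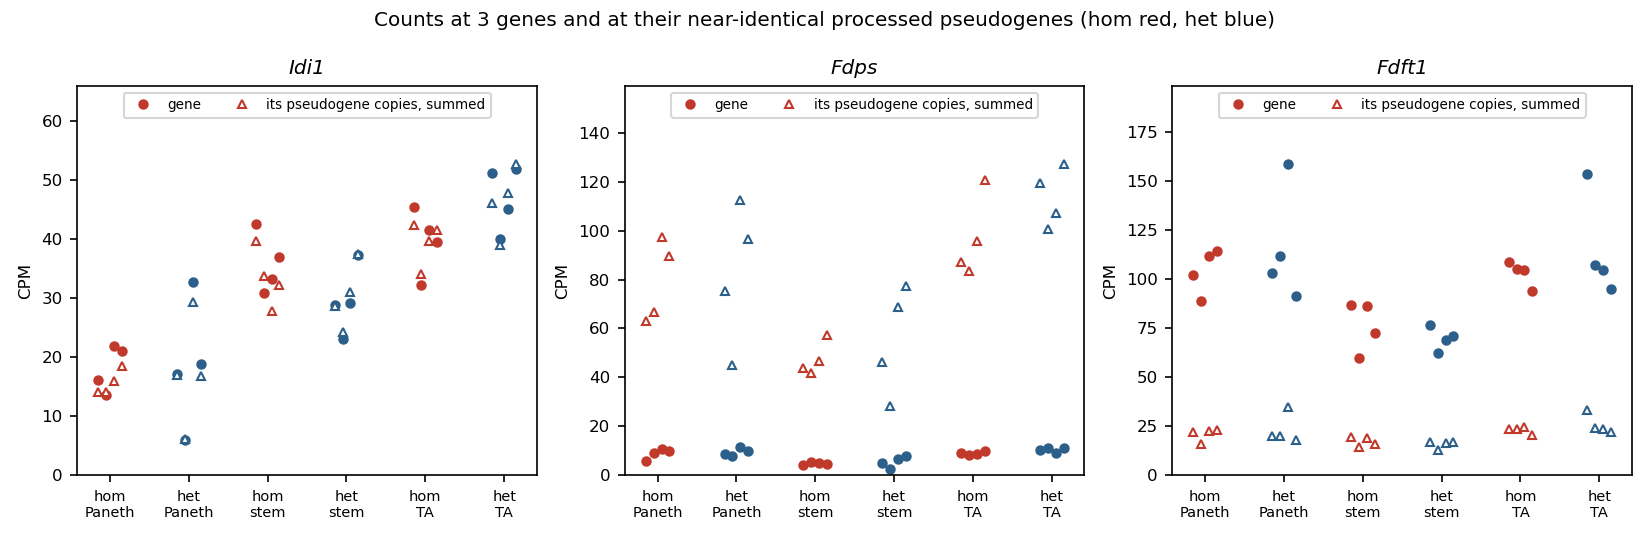
CPM of Idi1, Fdps and Fdft1 (filled circles) and of their processed pseudogene copies summed (open triangles) in each library, by group, hom in red and het in blue. The copies of Fdps lie far above the gene in every library, those of Idi1 lie near it and that of Fdft1 lies below, and the group means of gene and copies are lower in stem than in TA libraries.

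RefSeq promoters (GRCm38.p6) were found for 5 of the 8 members: Cyp51, Hmgcs1, Idi1, Lss and Srebf2. Those of Hmgcs1 and Srebf2 are shown because they hold a sterol element of the form TCACNCCA, the kind of site that SREBP2 is known to bind, and that of Idi1 because Idi1 departs from the other members in the Paneth fraction. Each is the 250 bases before the RefSeq start, read 5′ to 3′ on the gene's strand, with capitals for TCACNCCA and for CCAAT (the box bound by NF-Y, ATTGG on the other strand). They lie at chr13:119690101-119690350 (plus strand), chr15:82147019-82147268 (plus strand) and chr13:8885356-8885605 (plus strand).
Hmgcs1: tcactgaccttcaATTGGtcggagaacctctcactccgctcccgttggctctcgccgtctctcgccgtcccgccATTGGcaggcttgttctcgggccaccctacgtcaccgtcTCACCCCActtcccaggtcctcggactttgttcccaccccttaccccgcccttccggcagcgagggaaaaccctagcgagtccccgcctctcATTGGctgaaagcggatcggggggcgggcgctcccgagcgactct
Srebf2: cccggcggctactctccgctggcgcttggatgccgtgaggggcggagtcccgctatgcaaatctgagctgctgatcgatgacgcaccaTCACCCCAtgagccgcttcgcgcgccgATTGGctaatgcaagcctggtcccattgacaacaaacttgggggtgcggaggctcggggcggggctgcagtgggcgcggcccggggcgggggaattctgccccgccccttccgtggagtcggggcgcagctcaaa
Idi1: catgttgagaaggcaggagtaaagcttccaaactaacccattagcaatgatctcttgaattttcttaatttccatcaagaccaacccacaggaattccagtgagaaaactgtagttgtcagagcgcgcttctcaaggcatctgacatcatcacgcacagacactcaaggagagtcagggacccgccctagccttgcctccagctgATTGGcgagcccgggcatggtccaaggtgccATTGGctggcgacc
TCACNCCA, searched on both strands, begins at -137 in the Hmgcs1 promoter and at -162 in that of Srebf2, counted from the RefSeq start, and is in 2 of the 5 member promoters and in 3.67% of 32851 promoters of this length. The longer form TCACNCCAC is in that of Hmgcs1 alone among the 5, and in 1.05% of all. CCAAT is in 5 of 5, against 33.8% of all, and the GC box GGGCGG in 5 of 5, against 32.7% of all. A match describes letters only, and no binding was measured.

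The members were lower in the stem than in the TA fraction. All 8 were lower in the stem library than in the TA library of the same animal in 8 of 8 animals, and the drop passed the threshold (edgeR quasi-likelihood test over all 19396 genes, Benjamini-Hochberg adjusted p below 0.05) for 4 members in hom animals and 5 in het animals. The 4 of hom animals, Hmgcs1, Fdps, Sqle and Cyp51, were all among the 5 of het animals, which also held Fdft1. Of all genes tested, 3.87% were called in hom and 4.39% in het animals, 2.38% and 2.68% as lower and 1.48% and 1.71% as higher, and none of the 8 was called higher. The median log2 fold change of the 8 was -0.78 in hom and -0.76 in het animals, beside 0.00 and 0.02 over all genes tested. Shares of all genes that were negative, lower in every animal or apart between fractions are not given here. Counts of that kind, here and below, therefore stand without such a background. In sorted bulk samples, fewer cells of a type and less RNA per cell cannot be told apart.

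Among the enzymes up to farnesyl diphosphate, Hmgcs1 had the smallest adjusted p in both genotypes. It was at 67.5, 60.02, 87.5 and 90.8 CPM in the stem libraries of the hom animals BN45, BO25, BO57 and BP04, against 159, 152, 138 and 168 CPM in their TA libraries. In the het animals BN44, BO27, BO58 and BP03 it was at 69.4, 64.5, 93.2 and 80.3 CPM in stem libraries, against 147, 163, 139 and 130.4 CPM in TA libraries. Every stem library thus lay below every TA library of its genotype. The stem level was 0.50 times the TA level in hom animals (log2 fold change -1.01 ± 0.16 SE, adjusted p = 5.9e-04) and 0.53 times in het animals (-0.92 ± 0.16, adjusted p = 0.0011). Fdps, in the same order of animals, was at 4.25, 5.14, 4.92 and 4.43 CPM in hom stem libraries, against 8.95, 8.03, 8.67 and 9.86 CPM in hom TA libraries. In het animals Fdps was at 4.77, 2.65, 6.53 and 7.73 CPM in stem libraries, against 10.1, 11.2, 9.10 and 11.2 CPM in TA libraries. Here too the groups did not overlap, with log2 fold changes of -0.92 ± 0.26 in hom (adjusted p = 0.0498) and -0.94 ± 0.26 in het animals (adjusted p = 0.041). With the pseudogene copies added they were -1.02 ± 0.26 (edgeR adjusted p = 0.028) and -1.03 ± 0.26 (edgeR adjusted p = 0.023). Idi1 was at 42.5, 30.8, 33.2 and 36.9 CPM in hom stem libraries, against 45.4, 32.1, 41.5 and 39.4 CPM in hom TA libraries. The het values were 28.8, 23.02, 29.2 and 37.2 CPM in stem libraries, against 51.1, 39.95, 45.04 and 51.9 CPM in TA libraries. The Idi1 groups overlapped in hom animals (-0.14 ± 0.30, edgeR adjusted p = 0.9) and lay apart in het animals (-0.67 ± 0.30, edgeR adjusted p = 0.26), and neither difference passed the threshold.

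**Figure D2:**
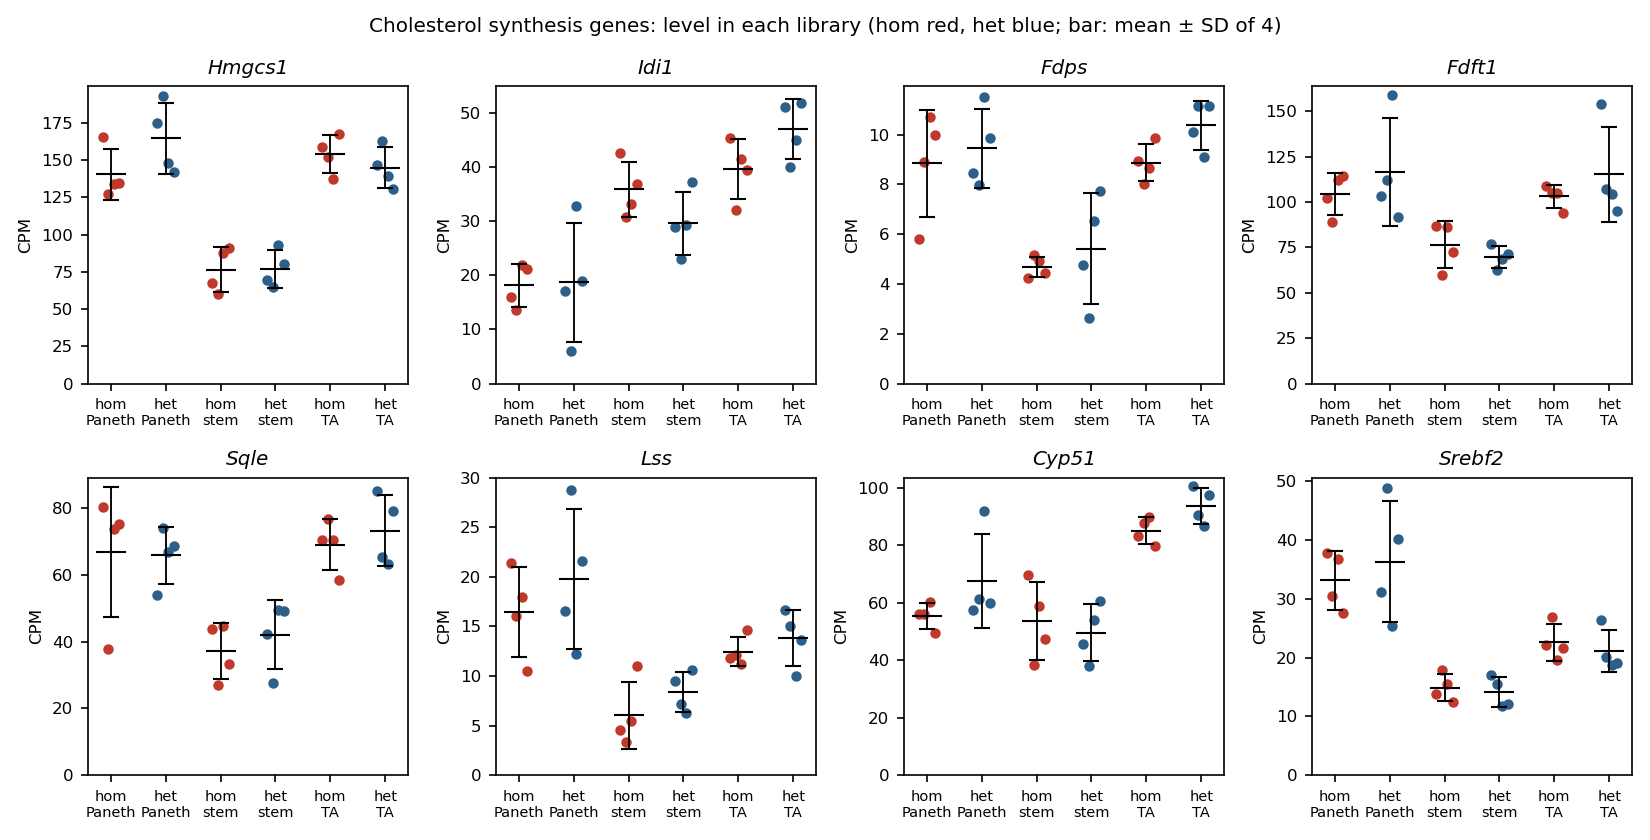
Level of each of the 8 genes (CPM, 1 panel a gene, axis from 0) in every library of the 6 groups, hom in red and het in blue, with the mean and SD of 4 as bars. In each panel the stem means are lowest, except for Idi1, whose Paneth means are lowest. The Idi1 point of the het Paneth library of BO58 (32.7 CPM) lies among the stem points. The Srebf2 means are highest in Paneth libraries.

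Of the squalene steps, Sqle fell in both genotypes. Its stem libraries were at 43.7, 27.1, 44.8 and 33.2 CPM in hom animals, against 70.4, 76.8, 70.5 and 58.5 CPM in their TA libraries. In het animals they were at 42.3, 27.6, 49.4 and 49.1 CPM, against 85.2, 65.3, 63.3 and 79.3 CPM in TA libraries. All stem values lay below all TA values, and the log2 fold change was -0.89 ± 0.22 in hom (edgeR adjusted p = 0.024) and -0.80 ± 0.22 in het animals (edgeR adjusted p = 0.04). Fdft1 was at 87.01, 59.7, 86.2 and 72.5 CPM in hom stem libraries, against 109, 105, 105 and 94.1 CPM in hom TA libraries. In het animals Fdft1 was at 76.9, 62.5, 68.8 and 71.2 CPM in stem libraries, against 154, 107, 105 and 95.2 CPM in TA libraries. The fractions lay apart in both genotypes, but the drop passed in het animals (-0.72 ± 0.17, edgeR adjusted p = 0.017) and not in hom animals (-0.43 ± 0.17, edgeR adjusted p = 0.19). That difference between genotypes, tested as an interaction, was 0.29 ± 0.25 (95% interval -0.22 to 0.80, edgeR adjusted p = 1.0). Lss, the least abundant per kilobase, was at 4.53, 3.32, 5.41 and 10.97 CPM in hom stem libraries, against 11.8, 12.1, 11.2 and 14.6 CPM in hom TA libraries. The het Lss values were 9.46, 7.17, 6.23 and 10.6 CPM in stem libraries, against 16.7, 15.00, 10.03 and 13.6 CPM in TA libraries. The Lss groups lay apart in hom animals and overlapped in het animals. Neither difference passed, at -1.04 ± 0.32 in hom (edgeR adjusted p = 0.076) and -0.73 ± 0.32 in het animals (edgeR adjusted p = 0.25).

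Cyp51, the demethylase that begins the trimming of lanosterol, fell in both genotypes. It was at 69.5, 38.3, 58.9 and 47.3 CPM in hom stem libraries, against 83.2, 87.8, 89.6 and 79.5 CPM in hom TA libraries. In het animals it was at 45.6, 37.9, 54.1 and 60.6 CPM in stem libraries, against 100.4, 90.4, 86.5 and 97.3 CPM in TA libraries. No stem library reached the lowest TA library of its genotype, and the log2 fold change was -0.67 ± 0.18 in hom (edgeR adjusted p = 0.038) and -0.92 ± 0.18 in het animals (edgeR adjusted p = 0.0038). Srebf2 was at 13.7, 17.9, 15.4 and 12.5 CPM in hom stem libraries, against 22.1, 26.97, 19.6 and 21.5 CPM in hom TA libraries. Its het values were 17.00, 15.6, 11.8 and 12.1 CPM in stem libraries, against 26.5, 20.1, 18.7 and 19.1 CPM in TA libraries. The fractions lay apart, with -0.60 ± 0.20 in hom (edgeR adjusted p = 0.11) and -0.58 ± 0.20 in het animals (edgeR adjusted p = 0.12), and neither passed the threshold.

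The number of members called rested on 4 animals a genotype. Among hom animals it was 2 without BN45, 1 without BO25, 1 without BO57 and 2 without BP04, and among het animals 2 without BN44, 2 without BO27, 3 without BO58 and 3 without BP03. Hmgcs1 was called in all of these, and no member changed direction in any. Over 10 alternative settings, these among them, Hmgcs1 was called in 10 in both genotypes. In hom animals Fdps was called in 5 of 10, Sqle in 6 and Cyp51 in 5. In het animals Fdps was called in 4 of 10, Sqle in 5, Fdft1 in 7 and Cyp51 in 10. Beside this contrast stood the goblet markers, which were called lower in stem than in TA libraries for 6 of 6 genes in both genotypes. Their sum was 113 to 1026 CPM in hom and 108 to 575 CPM in het stem libraries, against 4426 to 10410 CPM in hom and 5483 to 12740 CPM in het TA libraries. None of the 6 was at 0 in all 4 libraries of a group, though Clca1 and Zg16 reached down to 0 CPM in het stem libraries. Enteroendocrine markers were called lower for 4 of 7 genes in hom and 3 of 7 in het animals, at sums of 0.451 to 15.6 CPM in hom and 1.83 to 259 CPM in het stem libraries, against 28.7 to 468 CPM in hom and 6.76 to 474 CPM in het TA libraries. Enterocyte markers were negative for 7 of 7 genes in hom animals, with 3 called lower (Fabp1, Alpi and Sis), and for 5 of 7 in het animals, with 0 called. They summed to 952 to 1168 CPM in hom and 1044 to 1915 CPM in het stem libraries, against 2011 to 2679 CPM in hom and 1675 to 3239 CPM in het TA libraries. Proliferation markers (4 genes, none called) summed to 763 to 1036 CPM in hom and 764 to 951 CPM in het stem libraries, against 677 to 795 CPM in hom and 774 to 930 CPM in het TA libraries. The part of other cell types in the members' levels was not tested.

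**Figure D3:**
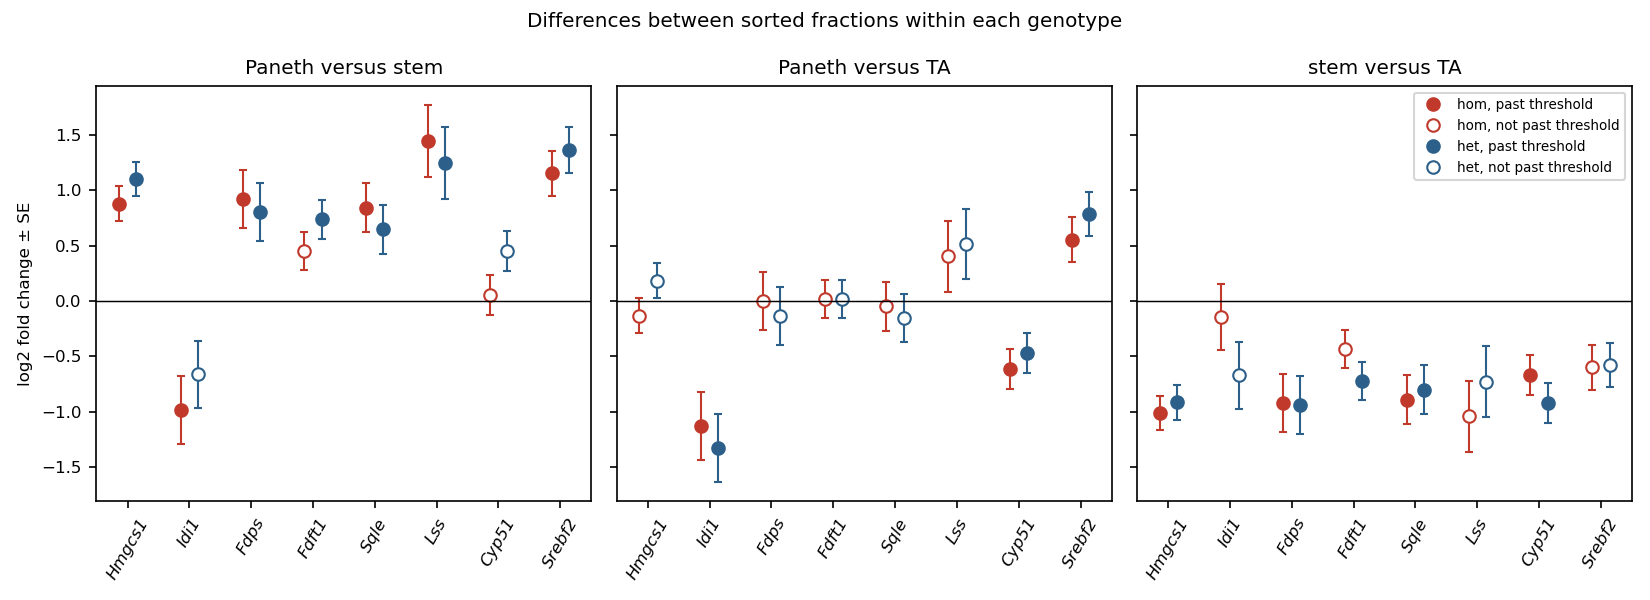
Log2 fold change of each gene (point, with its SE as bar) for Paneth over stem, Paneth over TA and stem over TA, in hom (red, left) and het (blue, right) animals; filled points passed an adjusted p of 0.05. All stem over TA points lie below 0, while Paneth over TA points lie on both sides, Srebf2 above and Idi1 and Cyp51 below.

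In the Paneth against the TA fraction Srebf2 was higher, Idi1 and Cyp51 were lower, and the other 5 did not pass. These 3 of 8 members stood beside 26.9% of all genes tested that were called in hom and 33.2% in het animals. Srebf2 was at 37.9, 30.4, 36.7 and 27.5 CPM in the Paneth libraries of hom animals and at 31.1, 48.8, 25.3 and 40.2 CPM in those of het animals, above the TA library of the same animal in 8 of 8. The groups lay apart in hom animals and overlapped in het animals, where TA libraries were at 26.5, 20.1, 18.7 and 19.1 CPM. Its Paneth level was 1.47 times the TA level in hom (0.55 ± 0.20, edgeR adjusted p = 0.045) and 1.72 times in het animals (0.78 ± 0.20, edgeR adjusted p = 0.005). Of all genes tested, 15.4% were called higher in hom and 18.7% in het animals, beside 1 of 8 members in each. Idi1 was at 16.1, 13.5, 21.9 and 21.1 CPM in hom and 17.1, 5.98, 32.7 and 18.9 CPM in het Paneth libraries, all below the TA libraries of their genotype. Its Paneth level was 0.46 times the TA level in hom (-1.13 ± 0.31, edgeR adjusted p = 0.0089) and 0.40 times in het animals (-1.33 ± 0.31, edgeR adjusted p = 0.0022). With its copies added the log2 fold changes were -1.23 (edgeR adjusted p = 0.0033) and -1.38 (edgeR adjusted p = 0.001). Cyp51 was at 56.05, 56.2, 60.1 and 49.3 CPM in hom Paneth libraries, all below the hom TA libraries (-0.62 ± 0.18, edgeR adjusted p = 0.014). In het Paneth libraries Cyp51 was at 57.5, 61.2, 91.99 and 59.9 CPM, where that of BO58 overlapped the TA range (-0.47 ± 0.18, edgeR adjusted p = 0.049). The background of genes called lower was 11.6% in hom and 14.4% in het animals, beside 2 of 8 members in each. In the same contrast proliferation markers were called lower for 4 of 4 genes in both genotypes, at sums of 162 to 363 CPM in hom and 231 to 333 CPM in het Paneth libraries, against 677 to 795 CPM in hom and 774 to 930 CPM in het TA libraries. Paneth markers (7 of 7) and tuft markers (5 of 5) were called higher in both, and enteroendocrine markers for 5 of 7 genes in hom and 4 of 7 in het animals. Of the stem markers Lgr5 (2.21, edgeR adjusted p = 3.9e-07) and Rgmb (0.81, edgeR adjusted p = 0.0015) were called higher in hom animals. Ascl2, Olfm4, Smoc2 and Slc12a2 were not called there. Lgr5 averaged 64.9 CPM in hom and 51.4 CPM in het Paneth libraries, against 14.05 CPM in hom and 8.38 CPM in het TA libraries. Of the goblet markers Spink4 was called higher and Clca1 and Zg16 lower in both genotypes, and 1 of 7 enterocyte markers in hom and 2 of 7 in het animals were called lower. Their part in the members' levels was not tested.

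The calls in this contrast were close to the threshold for Cyp51 and Srebf2. In het animals Cyp51 was not called under RLE scaling (adjusted p = 0.11 by edgeR), with DESeq2, without the filter on low counts or in a fit of the 8 libraries compared, nor without BN44, BO27 or BP03, which leaves it called in 3 of 10 alternatives. Srebf2 was not called without BO27 (edgeR adjusted p = 0.067), which left 1 member called there. In hom animals Srebf2 was not called without BN45, BO57 or BP04 or without the filter, Cyp51 not without BO57 or BP04, and Idi1 not without BN45 (edgeR adjusted p = 0.072). That left 1 member called without BN45, without BO57 and without BP04. The other 5 members did not pass. Lss, at 0.40 in hom (95% interval -0.26 to 1.06) and 0.52 in het animals (-0.15 to 1.18) on the log2 scale, was higher in the Paneth library in 3 of 4 animals of each genotype. Fdps was at -0.0024 in hom (-0.54 to 0.54) and -0.13 in het animals (-0.67 to 0.40), and at -0.26 and -0.43 with its copies added. Sqle was at -0.05 in hom (-0.51 to 0.41) and -0.15 in het animals (-0.61 to 0.30). These intervals reach to both sides of 0. Hmgcs1 was at 166, 127, 134 and 135 CPM in hom and 175, 193, 148 and 142 CPM in het Paneth libraries. The log2 fold changes of Hmgcs1 were -0.13 in hom (95% interval -0.45 to 0.19) and 0.18 in het animals (-0.14 to 0.51). Fdft1 was at 102, 89.02, 112 and 114 CPM in hom and 103, 112, 159 and 91.6 CPM in het Paneth libraries, with intervals of -0.34 to 0.38 and -0.34 to 0.38 for the log2 fold change.

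Against the stem fraction, most members were higher in the Paneth fraction. Hmgcs1, Fdps, Sqle, Lss and Srebf2 rose in both genotypes. Fdft1 passed in het animals (0.74 ± 0.17, edgeR adjusted p = 0.0025) and not in hom animals (0.45 ± 0.17, edgeR adjusted p = 0.051), and the test of that difference between genotypes gave 0.29 ± 0.25 (edgeR adjusted p = 0.93). This makes 5 of 8 members higher in hom and 6 of 8 in het animals. Of all genes tested 32.2% were called in hom and 34.1% in het animals, 18.5% and 19.4% as higher. Lss was at 21.4, 16.02, 18.00 and 10.6 CPM in hom Paneth libraries (1.44 ± 0.33 over stem, edgeR adjusted p = 0.0018) and at 16.5, 28.7, 12.2 and 21.7 CPM in het Paneth libraries (1.24 ± 0.32, edgeR adjusted p = 0.005). The Lss groups overlapped in hom animals, where BP04 had the lowest Paneth and the highest stem value, and lay apart in het animals. Srebf2 was 2.22 times its stem level in hom (edgeR adjusted p = 2.0e-04) and 2.57 times in het animals (edgeR adjusted p = 3.3e-05), and no Paneth library reached down to the stem range. Hmgcs1 was 1.84 times its stem level in hom (edgeR adjusted p = 2.0e-04) and 2.14 times in het animals (edgeR adjusted p = 1.9e-05). Sqle was at 80.2, 37.8, 73.7 and 75.2 CPM in hom Paneth libraries, where the low value of BO25 overlapped the stem range, and at 53.97, 74.2, 66.7 and 68.6 CPM in het Paneth libraries (0.84 and 0.65, edgeR adjusted p = 0.006 and 0.028). Fdps was at 5.80, 8.89, 10.7 and 9.97 CPM in hom and 8.47, 7.96, 11.5 and 9.84 CPM in het Paneth libraries (0.92 and 0.80, edgeR adjusted p = 0.01 and 0.021). These calls were not equally stable. In het animals Fdps was called in 5 of 10 alternatives, and not without the filter, in a fit of the 8 libraries compared, with its copies added, or without BN44 or BO27. Sqle was called there in 7 of 10, and not without the filter, BO27 or BP03, and Lss in 9 of 10, and not without BO27. In hom animals Fdps was called in 7 of 10, and not without the filter, BO57 or BP04. With its copies added Fdps was no longer called in het animals (0.60, edgeR adjusted p = 0.078) and was called in hom animals (0.76, edgeR adjusted p = 0.028).

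Idi1 had the opposite sign to the other members in this contrast. Its Paneth level was 0.51 times the stem level in hom animals (-0.98 ± 0.30, edgeR adjusted p = 0.017), beside 13.7% of all genes called lower, and 0.63 times in het animals (-0.66 ± 0.30, edgeR adjusted p = 0.097), where the background was 14.6%. Cyp51 differed by 0.05 ± 0.18 in hom and 0.45 ± 0.18 in het animals and did not pass. With the animal as a replicate block, which uses that the fractions come from the same mice, Idi1 (-0.80, edgeR adjusted p = 0.027) and Cyp51 (0.45, edgeR adjusted p = 0.047) were called in het animals and Fdft1 (0.46, edgeR adjusted p = 0.036) in hom animals. Cyp51 in het and Fdft1 in hom animals were also called under RLE scaling. In hom animals Idi1 was not called without BN45 or without BO25. Without BO27, 3 members were called in het animals. Paneth markers were higher in Paneth than in stem libraries for 7 of 7 genes, tuft markers for 5 of 5, enteroendocrine markers for 7 of 7 in hom and 6 of 7 in het, goblet markers for 4 of 6 in hom and 6 of 6 in het animals, and enterocyte markers for 4 of 7 in hom and 0 of 7 in het animals, while proliferation markers were lower for 4 of 4. The proliferation markers summed to 162 to 363 CPM in hom and 231 to 333 CPM in het Paneth libraries. Their part in the members' levels was not tested.

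The comparison of genotypes, hom against het within a fraction, showed no change of the 8 genes that passed the threshold. In Paneth, stem and TA libraries alike the hom and het values of each of the 8 members overlapped. In the Paneth fraction 7 of 8 log2 fold changes were negative, from -0.29 for Cyp51 to 0.02 for Sqle (edgeR adjusted p = 1.0 for all 8, beside 0 of 16108 genes called, or 0.0%). In the stem fraction 4 of 8 were negative, from -0.48 for Lss to 0.27 for Idi1, with edgeR adjusted p from 0.87 to 0.99, beside 0.0125% of 16056 genes called. In the TA fraction 6 of 8 were negative, from -0.24 for Idi1 to 0.11 for Srebf2, with edgeR adjusted p from 0.93 to 0.99, beside 0.0% of 15925 genes called. The median over the 8 was -0.15 in Paneth, 0.03 in stem and -0.14 in TA libraries, while that over all genes tested was -0.003, 0.004 and 0.0003. At an unadjusted p below 0.05 edgeR gave 368 genes in the Paneth, 1081 in the stem and 942 in the TA fraction, and DESeq2 called 27, 270 and 116 genes at its adjusted threshold; no member was called by either.

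**Figure D4:**
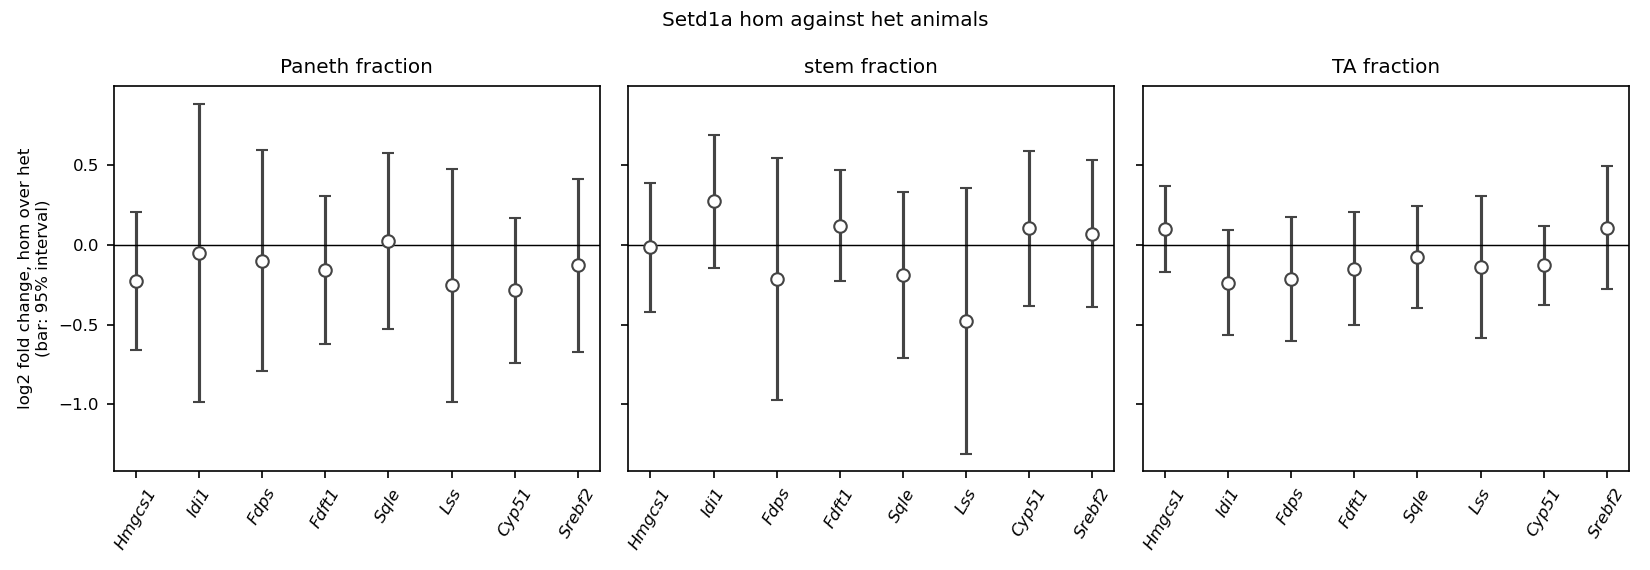
Log2 fold change of hom over het animals for each of the 8 genes in the Paneth, stem and TA fractions, with 95% intervals from the edgeR fit. Every interval crosses 0, and the widest belong to Idi1 in Paneth and Lss in stem libraries.

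A missed threshold does not show that the genotypes were alike, and the intervals say how large a difference remains possible. For Hmgcs1 the 95% interval of the log2 fold change was -0.66 to 0.20 in Paneth, -0.42 to 0.39 in stem and -0.17 to 0.37 in TA libraries. For Srebf2 it was -0.67 to 0.41, -0.39 to 0.53 and -0.28 to 0.49 in the same order. Lss in stem libraries (-1.31 to 0.35) and Idi1 in Paneth libraries (-0.98 to 0.88) were known least well. Whether the genotype effect differed between fractions was tested as well: the stem minus TA difference ran from -0.31 for Lss to 0.53 for Idi1, and the stem minus Paneth difference from -0.20 for Lss to 0.40 for Cyp51. None of the 8 passed in either (edgeR adjusted p = 0.89 or more, 0 of 19396 genes called or 0.0% in both, with 767 and 1219 genes at an unadjusted p below 0.05, and 17 and 59 called by DESeq2).

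The rest of the pathway was described from lists of 15 other synthesis genes, 6 genes that control SREBP, 9 of uptake and transport, 8 of efflux and esterification and 8 of fatty acid synthesis. In the stem against the TA fraction 14 of 15 other synthesis genes were negative in each genotype, with 1 called lower in hom and 2 in het animals, beside 2.38% and 2.68% of all genes tested. Msmo1, which removes the methyl groups after Cyp51, fell to 75.7 ± 29.3 CPM in hom stem libraries, against 160.4 ± 14.7 CPM in hom TA libraries (-1.08, edgeR adjusted p = 0.044), and to 76.8 ± 39.2 CPM in het stem libraries, against 180.5 ± 12.3 CPM in het TA libraries (-1.23, edgeR adjusted p = 0.019). Sc5d, a later desaturase, fell in het animals (-0.90, edgeR adjusted p = 0.021) and was at -0.54 in hom animals (edgeR adjusted p = 0.21). Of the SREBP control genes Insig1, itself a known SREBP target, was called lower in het animals (-1.39, edgeR adjusted p = 0.0033) and was at -0.84 in hom animals (edgeR adjusted p = 0.085); the other 5 were not called.

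Genes called in the uptake and the esterification lists went in both directions, and the uncalled genes of each list lay on both sides of 0. In each genotype 2 of 9 uptake and transport genes were lower in stem than in TA libraries, against the same shares of all genes. One was Npc1l1, the intestinal sterol transporter, at 3.14 ± 1.93 CPM in hom stem, against 23.7 ± 7.14 CPM in hom TA libraries (-2.92, edgeR adjusted p = 9.3e-04). In het animals Npc1l1 was at 6.78 ± 3.32 CPM in stem, against 29.9 ± 7.62 CPM in TA libraries (-2.14, edgeR adjusted p = 0.007). Soat1, which esterifies cholesterol for storage, was higher where the members were lower. It was at 543 ± 138 CPM in hom stem, against 104 ± 30.3 CPM in hom TA libraries (2.39, edgeR adjusted p = 1.1e-06). In het animals Soat1 was at 364 ± 63.5 CPM in stem, against 71.9 ± 8.88 CPM in TA libraries (2.34, edgeR adjusted p = 1.3e-06). Soat2, another esterifying gene, had the opposite sign and was not called, at -0.32 in hom (edgeR adjusted p = 0.72) and -0.97 in het animals (edgeR adjusted p = 0.10). Abca1, a cholesterol exporter, was called higher in hom animals, with 3.48 ± 1.92 CPM in stem, against 0.337 ± 0.637 CPM in TA libraries (edgeR adjusted p = 0.032). In het animals it was at 4.12 ± 1.15 CPM in stem, against 0.956 ± 0.741 CPM in TA libraries, higher in 4 of 4 animals, and did not pass (edgeR adjusted p = 0.17). Of the fatty acid genes the synthase Fasn and the elongase Elovl6 fell in both genotypes, Elovl6 with a log2 fold change of -1.20 in hom (edgeR adjusted p = 0.001) and -1.64 in het animals (edgeR adjusted p = 4.8e-05). The acetyl-CoA synthetase Acss2 was higher in hom animals (0.78, edgeR adjusted p = 0.039) and was at 0.47 in het animals (edgeR adjusted p = 0.26). The differences between genotypes for Sc5d, Abca1 and Acss2 did not pass (edgeR adjusted p = 1.0 each).

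**Figure D5:**
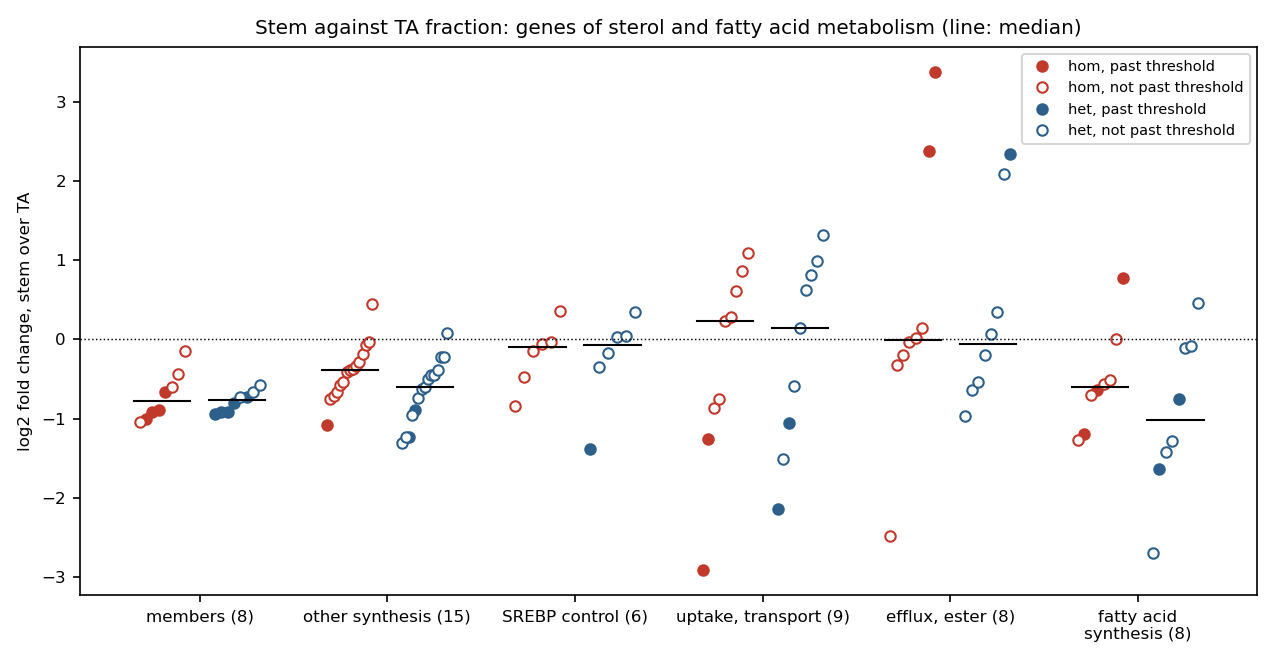
Log2 fold change of stem over TA for every gene of the 6 lists in hom (red, left) and het (blue, right) animals, filled where the adjusted p was below 0.05, with the list's median as a line. The 8 members are all below 0, with medians of -0.78 and -0.76, and the highest filled point of het animals is Soat1.

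In the Paneth fraction the other synthesis genes were called in both directions. Against TA, 2 of 15 other synthesis genes were called higher in each genotype, beside 15.4% of all genes in hom and 18.7% in het animals, and 5 of 15 were called lower, beside 11.6% and 14.4%. The sterol reductase Tm7sf2 was higher, with a log2 fold change of 1.49 in hom (edgeR adjusted p = 0.0014) and 1.08 in het animals (edgeR adjusted p = 0.011). Lbr, a nuclear envelope protein with the same reductase activity, was lower, at -1.25 in hom (edgeR adjusted p = 2.8e-05) and -1.43 in het animals (edgeR adjusted p = 4.3e-06). Acat2, Nsdhl and Ebp were lower in both genotypes too, between -0.82 for Nsdhl in hom and -1.27 for Acat2 in het animals. Against stem, Npc1l1 was higher by 2.85 in hom (edgeR adjusted p = 1.1e-04) and 1.88 in het animals (edgeR adjusted p = 0.0029). Soat1 was lower, at -2.16 in hom (edgeR adjusted p = 3.0e-07) and -1.58 in het animals (edgeR adjusted p = 1.0e-05). In the hom against het comparisons none of the genes of the 5 lists that were tested was called in any fraction.

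The members' levels were most alike across the stem and TA fractions. Over the 24 libraries the Pearson correlation of log2 CPM was positive for 25 of 28 pairs of members, with a median of 0.60 and a range from -0.66 for Idi1 with Srebf2 to 0.82 for Hmgcs1 with Lss. Over the 16 stem and TA libraries all 28 pairs were positive, with a median of 0.73 and a highest value of 0.96 for Sqle with Cyp51. After the mean of each of the 6 groups was taken away, 18 of 28 pairs were positive with a median of 0.16, Fdft1 with Cyp51 highest at 0.66. These points share animals, libraries and scaling and are given without a test. Ranked by their correlation with the mean standardised log2 level of the 8 members over the 24 libraries, the closest of 10545 other genes was Msmo1 (r = 0.92). The cell cycle inhibitor Cdkn2b (0.91), the dehydrogenase subunit Ogdh (0.91), the actin-severing Scin (0.90), the nucleotide kinase Cmpk1 (0.89), the protease inhibitor Serpinb1a (0.89), the transcription factor E2f2 (0.89) and Elovl6 (0.89) followed. Msmo1 and Elovl6 are of the pathway lists above, and the other 6 are not.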

How the data were processed

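RNA of 24 sorted fractions from 8 mice was amplified with 17 PCR cycles and 3 ng cDNA was tagmented, per the labels' protocols. The authors deposited 1 table of raw counts per gene, made with featureCounts 2.0.1 on mm10 with Ensembl 98 gene models after bcl2fastq 2.20.0, per the submitters' processing notes and the file headers. The headers give unstranded counting of fragments with a mapping quality of at least 1; for the aligner, a version was not given in the sources read here. The 92 spike-in rows, none above 6 counts, were left out.

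Totals, TMM-scaled CPM, fold changes and tests were computed from these counts with edgeR 4.0.16 (R 4.3.3): filterByExpr, quasi-likelihood F test, Benjamini-Hochberg adjustment over all genes tested, threshold 0.05. Hom against het was fitted within each fraction on 8 libraries, and fractions and interactions in 1 fit of 24 libraries. Symbols were matched for 55154 of 55421 gene IDs. The scripts were tested on simulated data. Plots were drawn with matplotlib 3.10.9, and tables were handled with pandas 2.3.3 in Python 3.11.15. Alternatives were RLE scaling, no filter, DESeq2 1.42.0, other sets of libraries in the fit, leaving out each animal, blocks, and the counts of pseudogene copies added, the last chosen after seeing the data.

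The replicate numbers were given in accession order and pair no hom with het animal, whereas the 3 fractions of an animal are paired by that animal. Deviations from the group means of same-animal libraries correlated at a median r of 0.25 (22 of 24 pairs over 0.1), against -0.07 for different animals (2 of 72 pairs). The members and lists were chosen with earlier results of these data known. The rule for named genes took the 8 members, from each pathway list and comparison up to 4 genes of smallest unadjusted p, called ones first, and the 8 genes closest to the members' mean on log2(CPM + 1) among genes with a symbol of their own and a mean of at least 5 CPM. Some genes of the lists are counted but not reported by name here. Counting intervals are not given, since PCR copies are not independent molecules; tests use the spread between animals.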

Additional observations from a re-analysis of the deposited data

Results flagged for a closer look

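In 2 of 48 groups of 4 libraries a member's level in 1 animal stood far from the other 3, where chance flags about 1 in 20 groups. Sqle was at 37.8 CPM in the Paneth library of hom animal BO25, below the other hom Paneth libraries at 73.7 to 80.2 CPM. Cyp51 was at 92.0 CPM in the Paneth library of het animal BO58, above the other het Paneth libraries at 57.5 to 61.2 CPM. The cause of either value was not tested.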

How the results depend on the processing

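No member changed direction where its difference was called. Genes called between hom and het were 8 in stem, 1 in TA and 2 in Paneth libraries in 1 fit of all 24 libraries, 270, 116 and 27 with DESeq2, 2 in TA with the letters of the animal names as a block and 8 in Paneth without the filter, against 2, 0 and 0. Leaving out an animal gave 0 to 3 in stem and 0 in the others. For stem against TA, DESeq2 called 1380 genes in hom and 1480 in het animals, against 750 and 851, and 2 members were called in each without the filter, against 4 and 5. Leaving out an animal gave 251 to 418 genes and 1 to 2 members in hom, and 394 to 501 genes and 2 to 3 members in het animals. Likewise Paneth against TA gave 3296 to 4355 genes and 1 to 3 members in hom, and 4580 to 5659 genes and 1 to 3 members in het animals. Paneth against stem gave 4062 to 5228 genes and 5 members in hom, and 4762 to 5878 genes and 3 to 7 members in het animals. The interaction of stem minus TA had 17 genes with DESeq2 and 0 to 1 without an animal, and that of stem minus Paneth 59 with DESeq2, 1 without the filter and 2 with the replicate block of the animal, against 0 in each. With that block, stem against TA called 956 genes in hom and 1083 in het animals, with 4 and 5 members; the block added the 3 member calls given for Paneth against stem and changed no other. RLE scaling moved the median of all genes by at most 0.09 on the log2 scale. The cause of these differences was not tested. With 4 animals a genotype, genotype differences inside the 95% intervals given are not excluded.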
